A study of Homo sapiens with 4 samples.

Results

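Expression of 7 prostate cancer long non-coding RNA (lncRNA) genes was examined in LNCaP cells, among 60675 annotated genes counted. The genes PCA3, PCGEM1, SCHLAP1, PCAT1, PCAT14, ARLNC1 and DRAIC were listed by name, and all 7 were found in the files by Ensembl identifier. The list used no rule on their counts, but earlier results of these data were known when it was made. LNCaP is an androgen-responsive line grown from a lymph node metastasis of human prostate cancer, and the cells were kept in medium with hormone-depleted serum. Every culture received 1 nM R1881, a synthetic androgen, for 72 h, with vehicle (2 libraries) or with 50 µM CPI-455, an inhibitor of the KDM5 family of histone H3K4 demethylases (2 libraries). The replicates of each group are described as biological replicates of this 1 line. No library without androgen was analysed here, so the comparison is of androgen alone against androgen plus the inhibitor. DMSO served as the vehicle, and the sources give different final concentrations of it.

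Long non-coding RNAs are transcripts without a protein product, and many act in the nucleus by guiding or blocking chromatin and RNA-binding proteins. Several are made almost only in the prostate, where androgen signaling controls many of them. PCGEM1, PCA3 and ARLNC1 are known as androgen-induced transcripts, DRAIC is known to be repressed by androgen, and SCHLAP1, PCAT1 and PCAT14 were described in prostate tumors as cancer-associated RNAs.

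PCA3 (ENSG00000225937) occupies positions 76764436 to 76787569 of chromosome 9 (GRCh38, forward strand), inside the span of the protein-coding gene PRUNE2 on the opposite strand. It shares no exon base with PRUNE2, but strand was not used in counting, so fragments of unspliced PRUNE2 RNA over PCA3 exons and fragments of PCA3 cannot be told apart. PCGEM1 (ENSG00000227418) and SCHLAP1 (ENSG00000281131) lie on the forward strand of chromosome 2, from 192749845 to 192776899 and from 180692104 to 180916939. PCAT1 (ENSG00000253438) lies on the forward strand of chromosome 8 from 126847055 to 127021014. PCAT14 (ENSG00000280623), which derives from an endogenous retrovirus, lies on the forward strand of chromosome 22 from 23536881 to 23547797. ARLNC1 (ENSG00000260896) lies on the reverse strand of chromosome 16 from 80828735 to 80892595, and DRAIC (ENSG00000245750) on the forward strand of chromosome 15 from 69463026 to 69571440. The counted exons spanned between 1436 bases in SCHLAP1 and 4911 bases in PCAT14.

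Fragments with several alignments were left out of the counts, so the share of each gene's exon sequence that occurs once in GRCh38 limits how much of it could be counted. Strand was ignored and fragments overlapping several genes were dropped, so exon bases shared with another gene were lost as well. These were 409 in PCA3, 212 in SCHLAP1, 159 in DRAIC and 131 in PCGEM1, and they are not taken out of the shares below. Of all 32-base windows inside the counted exons, 99.7% occurred once for DRAIC, 97.0% for ARLNC1, 96.8% for PCA3 and 95.8% for PCGEM1. The share was lower for PCAT1 (79.8%), SCHLAP1 (72.3%) and PCAT14 (62.4%), so the levels of these 3 genes are measured less completely. The annotation of the counts, Ensembl release 83, is also older than GENCODE release 44. PCGEM1, SCHLAP1 and PCAT14 have the same exon bases in both, whereas 37.8% of the GENCODE exon bases of ARLNC1, 27.7% of those of PCA3, 12.5% of those of PCAT1 and 8.98% of those of DRAIC were counted. Fragments from the remaining exons of these 4 genes are not part of the values given here.

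**Figure D1:**
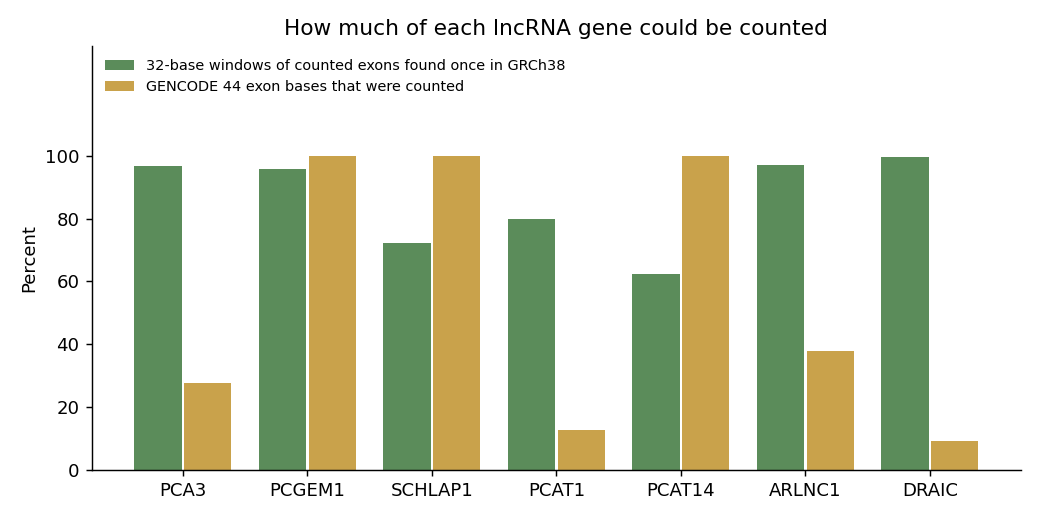
Bars give, in percent for each of the 7 lncRNA genes, the share of 32-base windows of the counted exons that occur once in GRCh38 and the share of GENCODE 44 exon bases that were counted. PCAT14 has the lowest share of windows found once (62.4%), and DRAIC the lowest share of GENCODE exon bases counted (8.98%).

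Exon 2 of the 5 counted exons of SCHLAP1 is printed as a stretch in which every window occurs once, since the whole gene has one of the lower shares. It lies on chromosome 2 (GRCh38, forward strand) from 180724596 to 180724690, and capitals would mark bases in a 32-base window that occurs more than once in GRCh38, which none of its 95 bases do. The sequence is written 5′ to 3′ along the transcript.
SCHLAP1 exon 2: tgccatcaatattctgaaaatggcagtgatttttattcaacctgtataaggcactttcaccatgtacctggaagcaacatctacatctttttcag

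For DRAIC the RefSeq promoter table (GRCh38.p14) has an entry, as it has for PCA3 and PCGEM1, and the window is printed because it shows where the RefSeq start falls in the exons that were counted. The window covers 250 bases before and 50 after the start (chr15:69561470-69561769, forward strand), and capitals mark the bases that belong to a counted exon. These capitals open the 9th of the 13 counted exon blocks, and the other 8 blocks upstream of it lie before the RefSeq start.
DRAIC promoter: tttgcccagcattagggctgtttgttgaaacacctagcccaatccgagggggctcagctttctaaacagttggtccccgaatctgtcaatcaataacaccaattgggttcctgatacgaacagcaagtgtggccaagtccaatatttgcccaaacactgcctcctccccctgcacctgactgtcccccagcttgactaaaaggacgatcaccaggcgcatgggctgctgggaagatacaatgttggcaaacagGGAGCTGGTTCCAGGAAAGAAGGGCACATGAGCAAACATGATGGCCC
On neither strand did the window hold the steroid hormone response hexamer AGAACA, the forkhead motif TGTTTAC, the GC box GGGCGG or the TATA box TATAAA. These motifs were present in 14.9%, 3.41%, 44.6% and 12.0% of the 27305 promoters of the table. A missing match says only that these letters are not in this window.

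The libraries held 19623553 and 20690819 counted fragments with vehicle and 9522920 and 5401588 with CPI-455. One fragment stood for between 0.0457 CPM (counts relative to library size, scaled with TMM factors) in vehicle replicate 2 and 0.198 CPM in CPI-455 replicate 2. A count of 0 allows up to 3 counts, which is 0.142 and 0.137 CPM with vehicle and 0.337 and 0.593 CPM with CPI-455 (replicates 1 and 2), and these limits cover counting error only. Of the luminal prostate markers, KRT8, KRT18, KLK2, KLK3, FOXA1, HOXB13, TMPRSS2 and FOLH1 summed to 852 and 783 CPM with vehicle and 374 and 422 CPM with CPI-455, with 5 of these 8 called lower and none higher, where 21.3% of all genes tested were called lower by the rule given below. Basal markers summed to between 0.189 and 1.23 CPM, with KRT5 and KRT15 at 0 in every library. Leukocyte markers summed to between 0 and 0.898 CPM, endothelial ones to between 0 and 1.55 CPM, neuroendocrine ones to between 9.10 and 11.5 CPM, and stromal ones to between 4.02 and 10.7 CPM. Of the stromal markers the collagen gene COL1A1 was called higher (log2 fold change 1.00 and FDR = 0.0195), a call made in 8 of 16 alternatives and lost with DESeq2, with library totals alone and without either vehicle library or CPI-455 replicate 1. COL1A2 was counted 1 and 0 times with vehicle, against 0 and 15 times with CPI-455. Of the neuroendocrine markers CHGA was called lower (log2 fold change -1.32 and FDR = 0.0176), though not with DESeq2 or without either vehicle library or CPI-455 replicate 1, and SYP was not called (log2 fold change 0.69). The transcript MALAT1 took 0.0884% to 0.114% of counts with vehicle and 4.95% to 6.49% with CPI-455. When scaling ignored MALAT1 together with mitochondrial genes, the log2 fold changes of the lncRNAs tested below were -1.56 for SCHLAP1, -1.75 for PCAT1, -3.57 for ARLNC1 and 0.73 for DRAIC, with the same calls.

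At these depths the 7 lncRNAs were rare transcripts. Together they held 113 and 104 counts with vehicle and 30 and 18 counts with CPI-455, which is 5.34 and 4.75 CPM against 3.37 and 3.56 CPM. SCHLAP1, PCAT1, ARLNC1 and DRAIC had more than 10 counts in both vehicle libraries. With CPI-455, DRAIC in replicate 1 was the only one above 10 counts, and no lncRNA of the 7 was above 10 counts in replicate 2. PCA3, PCGEM1 and PCAT14 stayed at or under 10 counts in all 4 libraries. A gene was tested when it reached 0.686 CPM (library totals), the level of 10 counts in the median library, in at least 2 libraries. That left 4 of the 7 for the test, SCHLAP1, PCAT1, ARLNC1 and DRAIC. SCHLAP1, PCAT1 and ARLNC1 reached that level in both vehicle libraries and in no CPI-455 library, so genes such as these enter the test through the group in which they are high. That their groups do not overlap follows from this and is no separate result. DRAIC reached it in both CPI-455 libraries and in 1 vehicle library.

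**Figure D2:**
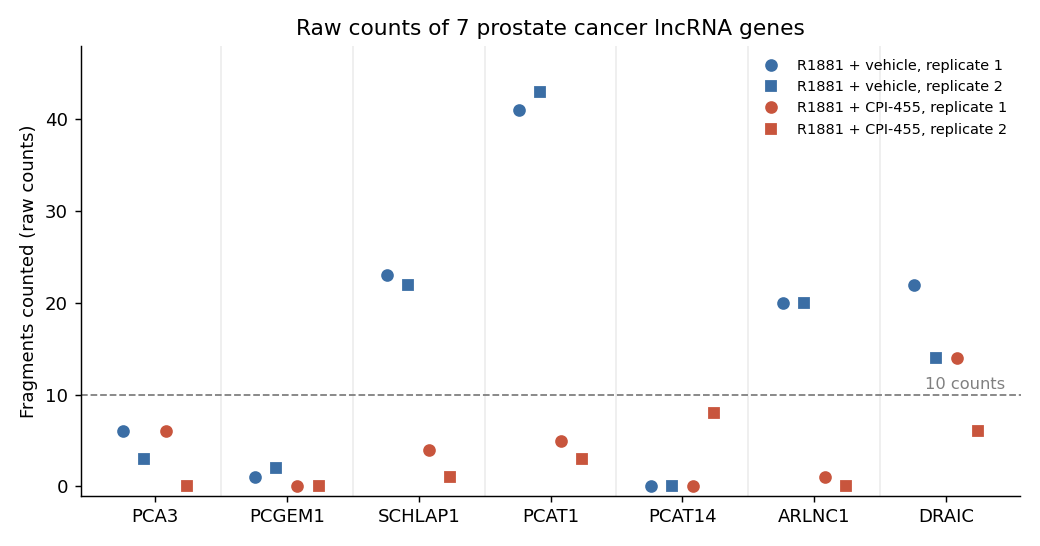
Raw fragment counts (vertical axis) of the 7 lncRNA genes in each library, with circles for replicate 1, squares for replicate 2, blue for R1881 with vehicle and red for R1881 with CPI-455; the dashed line marks 10 counts. SCHLAP1, PCAT1, ARLNC1 and DRAIC lie above the line in both vehicle libraries, and 1 point with CPI-455 (DRAIC, replicate 1, 14 counts) lies above it.

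A gene was called differentially expressed at a change of at least 2-fold and an FDR below 0.05 (edgeR's quasi-likelihood test, Benjamini-Hochberg adjustment over all 17600 genes tested). Fold changes are given as CPI-455 over vehicle, so a negative log2 value means lower expression with CPI-455. Expression of 2 of the 4 tested lncRNAs, ARLNC1 and PCAT1, was called lower with CPI-455, and none was called higher. No tested member was higher at an unadjusted p below 0.05 either, with edgeR or with DESeq2. Over all genes 42.4% were called, 21.3% lower and 21.0% higher. Of the 2271 lncRNA genes tested 48.7% were called, 10.3% lower and 38.5% higher. The median log2 fold change was 0.84 for these lncRNA genes and -0.04 for all genes. Among the 1582 genes that, like ARLNC1, PCAT1 and SCHLAP1, passed the filter through the vehicle libraries and not through the CPI-455 libraries, 44.9% were called lower, and among 433 such lncRNA genes 35.8%. The share of lncRNAs called is therefore given with no reading for the group.

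Among the androgen-induced transcripts, ARLNC1 was called lower with CPI-455. ARLNC1 is known to be switched on by androgen and to take part in androgen signaling. It had 20 and 20 counts with vehicle and 1 and 0 counts with CPI-455 (replicates 1 and 2). In normalized terms its level was 0.945 and 0.914 CPM with vehicle and 0.112 and 0 CPM with CPI-455. Both CPI-455 libraries lay below both vehicle libraries, which its way through the filter already implies. The same held for 42.8% of all genes tested. The group values were 0.929 ± 0.0219 CPM (SD, n = 2) and 0.0561 ± 0.0793 CPM (SD, n = 2). The log2 fold change was -3.57 with a standard error of 1.14 (FDR = 0.0213). Because the CPI-455 value rests on 1 count, the ratio is given from the counts as well, and vehicle was 13.0 times CPI-455 with an exact 95% counting interval from 2.20 to 525. This interval covers counting error only, and a test against a 2-fold change (edgeR's glmTreat) called none of the 7 lncRNAs. DESeq2 gave the same direction without a call (log2 fold change -3.69, standard error 2.10, FDR = 0.124). Without CPI-455 replicate 1, the library with the single count, the log2 fold change was -6.91, which reflects 0 counts in the one library left and is no bound. Without either vehicle library, ARLNC1 no longer passed the expression filter and was not tested.

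PCGEM1, a prostate-specific transcript known to be induced by androgen, was near the limit of detection. It had 1 and 2 counts with vehicle and 0 and 0 counts with CPI-455, which is 0.0472 and 0.0914 CPM against 0 in both. Both groups lie at or below what a count of 0 allows, so no fold change is given, and a difference was not detectable at this depth. PCA3, the transcript measured in urine tests for prostate cancer, had 6 and 3 counts with vehicle and 6 and 0 counts with CPI-455. Its level was 0.283 and 0.137 CPM with vehicle and 0.673 and 0 CPM with CPI-455. The CPI-455 libraries lay on either side of the vehicle libraries, and the ratio of CPI-455 to vehicle was 2.06 with an exact 95% counting interval from 0.602 to 6.47. A change of PCA3 in either direction was not detectable. Of the 3 androgen-induced transcripts, ARLNC1 alone had enough counts to be tested.

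PCAT1 had the most counts of the 7 in both vehicle libraries. It is described as a repressor of the DNA repair gene BRCA2. PCAT1 had 41 and 43 counts with vehicle and 5 and 3 counts with CPI-455. Its level was 1.94 and 1.96 CPM with vehicle and 0.561 and 0.593 CPM with CPI-455. Both CPI-455 libraries lay below both vehicle libraries, which again follows from its way through the filter. The group values were 1.95 ± 0.0196 CPM (SD, n = 2) and 0.577 ± 0.0230 CPM (SD, n = 2). The log2 fold change was -1.75 with a standard error of 0.66 (FDR = 0.0419), and the ratio of vehicle to CPI-455 from the counts was 3.41 (exact 95% counting interval 1.65 to 8.15). The call is close to the threshold, and it was not made with DESeq2 (FDR = 0.173), with upper-quartile factors (FDR = 0.0626) or without vehicle replicate 1 (FDR = 0.408), vehicle replicate 2 (FDR = 0.431) or CPI-455 replicate 1 (FDR = 0.0606). The log2 fold change stayed between -1.94 and -1.58 in those fits and in the others run.

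SCHLAP1 is known for its link to aggressive prostate cancer and for opposing the SWI/SNF chromatin remodeling complex. It had 23 and 22 counts with vehicle and 4 and 1 counts with CPI-455, which is 1.09 and 1.00 CPM against 0.449 and 0.198 CPM. Both CPI-455 libraries lay below both vehicle libraries, as its way through the filter implies. SCHLAP1 was not called (log2 fold change -1.56, standard error 0.80, FDR = 0.118). The ratio of vehicle to CPI-455 was 2.92 with an exact 95% counting interval from 1.16 to 9.42. Fits that each omitted 1 library gave log2 fold changes from -2.37 to -1.25.

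DRAIC, described as a tumor-suppressive RNA that inhibits the IκB kinase complex, did not share the lower levels with CPI-455. It had 22 and 14 counts with vehicle and 14 and 6 counts with CPI-455. Scaled to depth, its level was 1.04 and 0.640 CPM with vehicle and 1.57 and 1.19 CPM with CPI-455, so both CPI-455 libraries lay above both vehicle libraries. The log2 fold change was 0.74 with a standard error of 0.66 (FDR = 0.355), and DRAIC was not called. The ratio of CPI-455 to vehicle was 1.71 with an exact 95% counting interval from 0.939 to 3.04, so neither an unchanged level nor a rise of 3-fold lies outside it. No member besides DRAIC had groups that were apart with CPI-455 the higher. Groups that do not overlap were found for 81.9% of all genes tested, 42.8% lower and 39.1% higher with CPI-455, so with 2 libraries a group this separation is common.

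PCAT14 was counted in 1 library. It had 0 counts in both vehicle libraries and in CPI-455 replicate 1, and 8 counts (1.58 CPM) in CPI-455 replicate 2, the shallowest library. The exact 95% counting interval of the ratio of CPI-455 to vehicle, from the counts summed over each group, starts at 5.26, but it takes no account of the spread between the CPI-455 replicates, 1 of which had no count. PCAT14 did not pass the expression filter. Counts of this kind were more common with CPI-455. At least 8 counts in 1 library and 0 in the other 3 were found for 138 genes in CPI-455 replicate 2 and 107 in CPI-455 replicate 1, against 12 and 13 genes in vehicle replicates 1 and 2.

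**Figure D3:**
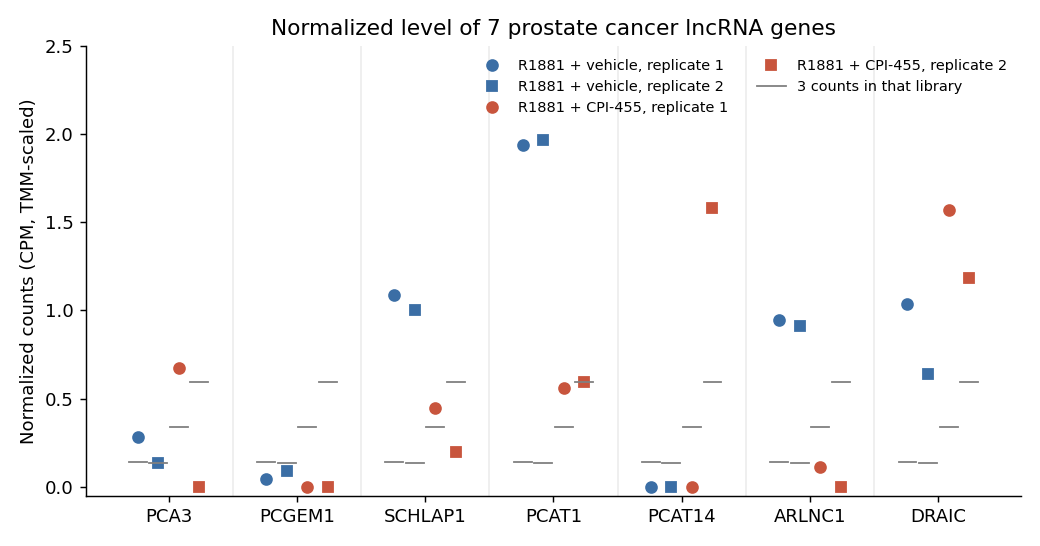
Normalized counts (CPM, TMM-scaled, vertical axis) of the 7 lncRNA genes in each library, with symbols as in the plot of raw counts; grey lines mark the CPM of 3 counts in each library. PCAT1, SCHLAP1 and ARLNC1 lie lower in both CPI-455 libraries, DRAIC lies higher in both, and PCAT14 is above 0 in CPI-455 replicate 2 alone (1.58 CPM).

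The order of the lncRNAs was compared per kilobase of counted exon (FPKM, from the scaled counts). With vehicle, PCAT1 was highest at 0.842 ± 0.00847 FPKM (SD, n = 2), followed by SCHLAP1 at 0.728 ± 0.0401, ARLNC1 at 0.366 ± 0.00865 and DRAIC at 0.298 ± 0.100. The ranges of PCAT1 and SCHLAP1 did not overlap, nor did those of SCHLAP1 and ARLNC1, while those of ARLNC1 and DRAIC did. PCAT1 had 84 counts and SCHLAP1 45 over both vehicle libraries, too few to settle the order of these 2. PCA3 at 0.0536 ± 0.0264 FPKM and PCGEM1 at 0.0405 ± 0.0182 FPKM overlapped each other below them. With CPI-455, DRAIC was highest at 0.489 ± 0.0963 FPKM, apart from PCAT1 at 0.249 ± 0.00993 FPKM. From PCAT1 downward each lncRNA overlapped its neighbour in rank, through SCHLAP1 (0.225 ± 0.124), PCAT14 (0.161 ± 0.228), PCA3 (0.0858 ± 0.121) and ARLNC1 (0.0221 ± 0.0313), so neighbouring ranks cannot be told apart, although both values of PCAT1 lay above those of PCA3 and ARLNC1, and both of SCHLAP1 above those of ARLNC1. The ranges leave out counting error, which is large at counts this low, so ranges that are apart do not by themselves settle an order. Repeated, shared and uncounted exon sequence, which differs between the genes, also moves these levels.

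**Figure D4:**
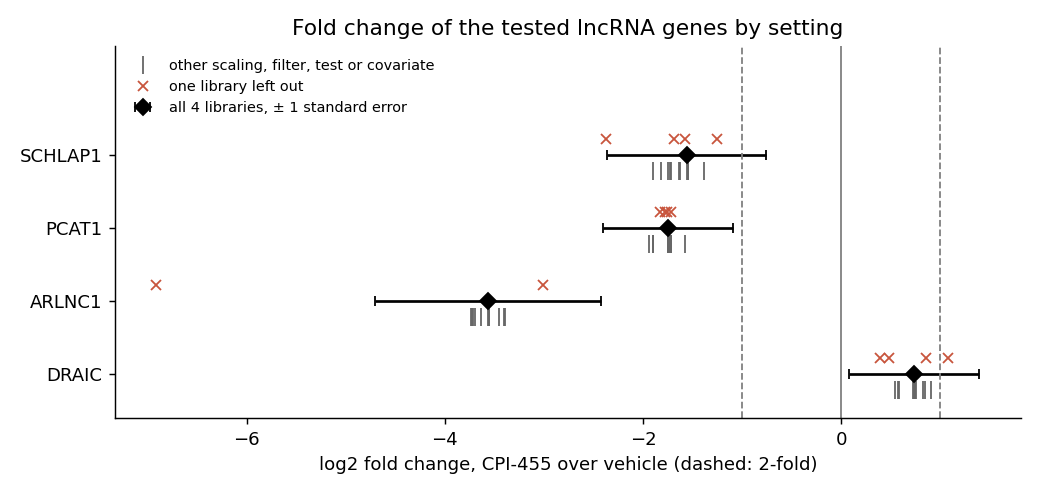
The log2 fold change (CPI-455 over vehicle, horizontal axis) of the 4 tested lncRNAs is shown as a diamond with ± 1 standard error, with ticks for other scalings, filters, tests and covariates and crosses for fits without 1 library; dashed lines mark a 2-fold change. SCHLAP1, PCAT1 and ARLNC1 stay below 0 and DRAIC above 0 in every fit drawn, and the ARLNC1 cross at -6.91 is the fit without CPI-455 replicate 1.

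Protein-coding genes next to the lncRNAs were examined to see whether a change extended along the chromosome. For each lncRNA the nearest tested protein-coding gene on each side was taken, and of these 14 genes 5 were called lower with CPI-455, none higher and 9 were not called (edgeR, 21.3% of all genes lower). Their median log2 fold change was -0.25, against -0.04 for all genes tested. At ARLNC1, CDYL2, which encodes a chromodomain protein and lies 24.4 kb away, was counted 734 and 753 times with vehicle, against 58 and 34 times with CPI-455 (log2 fold change -2.39, FDR = 9.3e-06). CMC2 on the other side, 73.9 kb away, had a log2 fold change of 0.87 (FDR = 0.00243) and was not called. CMC2 was called higher without CPI-455 replicate 1, with upper-quartile factors and with the length and GC trend removed. The genes on either side of ARLNC1 thus had values of opposite sign. At SCHLAP1, UBE2E3, a ubiquitin-conjugating enzyme gene 50.3 kb away, had a log2 fold change of 0.25 (FDR = 0.144), and CWC22 had one of 0.49 (FDR = 0.0108), neither called. At PCAT1, the oncogene MYC, 714 kb away, had a log2 fold change of -0.30 (FDR = 0.0378) and LRATD2 had one of 0.34 (FDR = 0.0238), neither called.

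Of the 5 neighbours called lower, 4 lay beside PCA3, PCGEM1 or PCAT14, the lncRNAs that could not be tested. PCGEM1 lies between TMEFF2, a transmembrane protein gene counted 217 and 181 times with vehicle, against 11 and 7 times with CPI-455 (log2 fold change -2.83, FDR = 1.7e-04), and the zinc transporter gene SLC39A10 (log2 fold change -2.47, FDR = 2.4e-06), which are 554 kb and 2799 kb away. At PCA3, PRUNE2, the gene that spans it, was counted 913 and 1002 times with vehicle, against 39 and 19 times with CPI-455 (log2 fold change -3.43, standard error 0.21, FDR = 1.8e-06). GCNT1, a glycosyltransferase gene on one side of PCA3, was also lower (log2 fold change -2.02, FDR = 7.3e-05), and VPS13A on the other was not called (log2 fold change -0.21, FDR = 0.172). The signal-transduction gene BCR beside PCAT14 was lower (log2 fold change -1.95, FDR = 8.2e-06), and RGL4 was not called (log2 fold change 0.30, FDR = 0.708). RPLP1, a ribosomal protein gene 6.83 kb from DRAIC, had a log2 fold change of 0.57 (FDR = 7.9e-04), and the corepressor gene TLE3 had one of -0.47 (FDR = 0.0223), neither called.

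**Figure D5:**
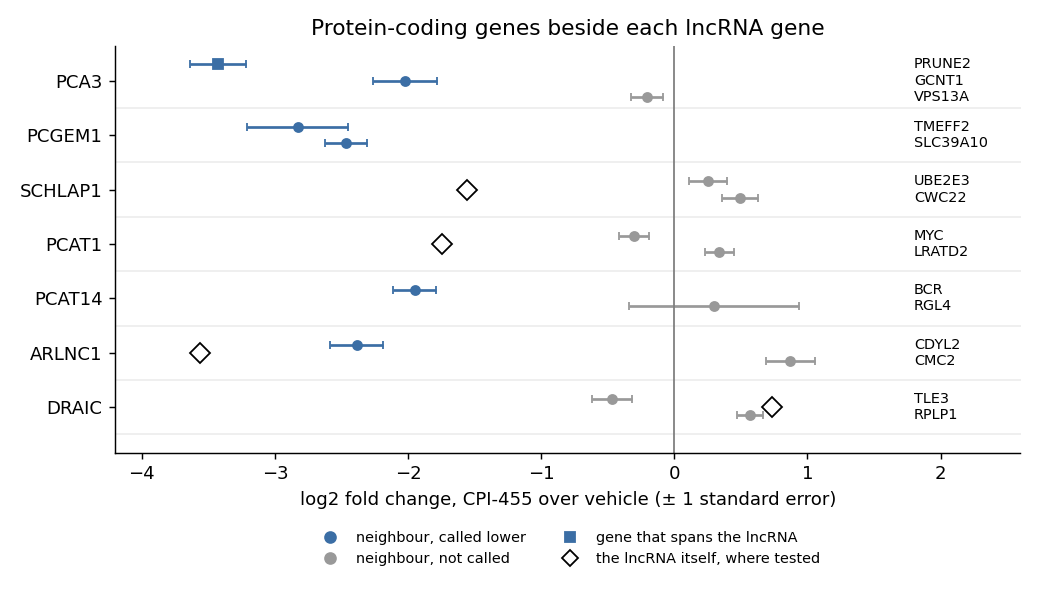
The log2 fold change (CPI-455 over vehicle, horizontal axis, ± 1 standard error) of the nearest tested protein-coding genes beside each lncRNA gene, in blue where called lower and grey where not called; the square is PRUNE2, which spans PCA3, and open diamonds are the lncRNAs that were tested. Gene names stand at the right in the order of the points, and 5 of the 14 neighbours are called lower.

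The proteins that the lncRNAs are reported to act with or on were listed by name, and the 10 reported here were all tested. Of these 3 were called lower with CPI-455 and none higher, by edgeR, against 21.3% of all genes called lower, and the median log2 fold change was -0.33 (-0.04 for all genes). BRCA2, the DNA repair gene tied to PCAT1, was counted 3501 and 3369 times with vehicle, against 369 and 269 times with CPI-455, a log2 fold change of -1.77 (FDR = 8.7e-06). PCAT1, described as its repressor, was called lower too, and a relation between the levels of these genes was not tested. PRUNE2 and ADAR, the RNA-editing enzyme gene linked to PCA3, were the other two called lower, and ADAR had a log2 fold change of -1.42 (FDR = 5.8e-06). SMARCB1, the SWI/SNF subunit gene tied to SCHLAP1, had a log2 fold change of 0.66 (FDR = 0.00188), and HNRNPA1, a splicing factor gene tied to PCGEM1, had one of 0.68 (FDR = 4.4e-04). Both lay under the 2-fold limit, and HNRNPA1 was called higher with the length and GC trend removed (log2 fold change up to 1.12 over all fits). The IκB kinase genes tied to DRAIC had log2 fold changes of -0.82 for CHUK, 0.90 for IKBKB and -0.36 for IKBKG, and NFKBIA, the inhibitor that the kinase targets, had one of 0.18, none of them called. IKBKB was called higher without CPI-455 replicate 2, with upper-quartile factors and with the length and GC trend removed, and CHUK was called lower without CPI-455 replicate 2 and with library totals alone.

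Other lncRNAs named for prostate cancer or androgen response gave a mixed picture. Of 23 listed, 20 were matched in the files and 12 were tested, with 4 called higher, 3 lower and 5 not called (edgeR). Their median log2 fold change was 0.87, close to the 0.84 of all lncRNA genes tested. Of all lncRNA genes tested 38.5% were called higher and 10.3% lower, and of all genes 21.0% and 21.3%, so these calls are given with no reading for the list. PCAT7 was counted 37 and 53 times with vehicle, against 3 and 4 times with CPI-455 (log2 fold change -1.99, FDR = 0.0351). TMPO-AS1, with 224 and 265 counts against 20 and 12 (log2 fold change -2.30, FDR = 2.0e-04), and KLKP1, a transcribed pseudogene of the kallikrein cluster with 167 and 184 counts against 21 and 11 (log2 fold change -1.83, FDR = 0.00127), were lower as well. ZEB1-AS1 rose from 114 and 95 counts to 140 and 80 in the shallower libraries (log2 fold change 1.70, FDR = 3.9e-04). PCAT6 (log2 fold change 1.97, FDR = 0.0146), FALEC (log2 fold change 2.14, FDR = 0.0282) and CBR3-AS1 (log2 fold change 1.19, FDR = 0.0333) were called higher. FALEC, with 10 and 12 counts with vehicle against 30 and 5 with CPI-455, passed the filter through the CPI-455 libraries alone. PCAT7 passed it through the vehicle libraries and did not reach its level in both CPI-455 libraries. Both genes thus entered the test through the group in which they are high. The calls of PCAT7, CBR3-AS1 and FALEC were not made with DESeq2 or without either vehicle library, nor that of PCAT6 without either vehicle library. Without CPI-455 replicate 1, PCAT7 and FALEC were not called either. Removing the length and GC trend ended the calls of PCAT6 (lowest log2 fold change over all fits 0.83) and FALEC (lowest 0.35), upper-quartile factors ended that of PCAT7, library totals alone that of CBR3-AS1, and testing without the filter those of CBR3-AS1 and FALEC. TMPO-AS1, ZEB1-AS1 and CBR3-AS1 are antisense genes, and without strand their fragments cannot be told apart from those of the opposite gene. PCAT4 and PCAT5 had no count in any library, which allows up to 3 counts in each.

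The genes whose profile over the 4 libraries was most like that of each tested lncRNA were taken by Euclidean distance between log2 CPM values. For ARLNC1 these were C4orf47, with the same 4 counts and a distance of 0, and TOMM20L at 0.145. For PCAT1 they were the pseudogene PRODHLP at 0.227 and a transcript with no gene symbol beyond its identifier at 0.405. LINC02615 and ANKK1 were nearest to SCHLAP1, at 0.279 and 0.280, and a lncRNA gene named by its identifier and the pseudogene TERF1P7 were nearest to DRAIC, at 0.248 and 0.279. With 4 libraries and counts this low such likeness describes the count pattern alone.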

How the data were processed

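RNA from 4 LNCaP cultures was sequenced, 2 with R1881 and vehicle and 2 with R1881 and CPI-455. The authors trimmed reads with Trim Galore (cutadapt), aligned them to GRCh38 with STAR and, per the file headers, ran featureCounts v1.5.0-p1 with the Ensembl release 83 genes. Raw counts, 1 per gene and library and not normalized, were deposited. Counting ignored strand and dropped any fragment that aligned to several places or overlapped several genes. RNA selection and library strandedness are not given in the sources used here.

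From these counts, TMM factors, filterByExpr (minimum of 10 counts) and the quasi-likelihood test of edgeR 4.0.16 in R 4.3.3 were applied to all genes without covariates, as the study's methods name edgeR, a 2-fold change and an FDR below 0.05. The sign is opposite to that of the study's volcano plot. Standard errors are the log2 fold change over the square root of F. Ratios from counts have exact (Clopper-Pearson) 95% intervals, which cover counting error only. DESeq2 1.42.0 and other settings were alternatives, and mgcv 1.9.3 fitted smooth terms for exon length and GC. The test was checked on simulated counts in which few genes changed and all shared a single dispersion. That check does not cover a change as broad as the one in these data. Symbols were matched for 56558 genes, gene types are from GENCODE release 44, and promoters and their coordinates are from RefSeq (GRCh38.p14).

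The members, lists and tests were chosen with earlier results of these data known. Genes are named when they are 1 of the 7 lncRNAs, called among related lncRNAs, reported partners, nearest tested protein-coding neighbours or most alike in profile. Some listed genes and sequences are not reported here, and counts over lists leave them out.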

Additional observations from a re-analysis of the deposited data

How the results depend on the processing

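All log2 fold changes of SCHLAP1, PCAT1, ARLNC1 and DRAIC kept their direction in each alternative that gave a value. The number of lncRNAs of the 7 called lower was 2 (PCAT1 and ARLNC1), and it was 1 with upper-quartile factors, 0 with DESeq2, 0 at an FDR below 0.01, 0 with glmTreat against 2-fold, 0 with at least 10 counts in every library, which none of the 7 had, and between 0 and 2 without 1 library. With DESeq2 none of the 4 tested had an unadjusted p below 0.05. The number called higher was 0 and became 1 (PCAT14) with the likelihood-ratio test without the filter. With the replicate block the number lower was 1 (ARLNC1), and with the length and GC trend removed and the replicate block it was 0, whereas the trend removed without the block left 2. Replicate numbers 1 and 2 recur in each group, and no pairing by number is known. Deviations of same-numbered libraries had a correlation of 0.0400 across genes. Genes of low count are among these, so the value cannot exclude an effect shared by a number. SCHLAP1 and DRAIC were called in none of the 15 alternatives. Over all genes, 3698 were called higher and 3756 lower, and these became 2455 and 2350 with glmTreat, and 5243 and 5767 without a minimum fold. The balance moved with scaling, to 4298 higher and 3096 lower with upper-quartile factors and 3125 and 4569 with library totals alone. It was 3311 and 4533 without the filter, where 33392 genes were tested. The replicate block also ended the calls of PCAT7, CBR3-AS1, FALEC and COL1A1. Upper-quartile factors moved the median of all genes by 0.175 and library totals alone by -0.191 on the log2 scale, and the DRAIC value was 0.91 and 0.54 with them. ARLNC1 was not tested without either vehicle library. In these fits on 3 libraries the lone library is assumed to vary like the other group. PCA3, PCGEM1 and PCAT14 are limited by depth, and a count of 0 in the CPI-455 libraries allows up to 0.337 and 0.593 CPM.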
